A study of Drosophila melanogaster with 2 samples.

Results

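The sites described here are the summits of CG17568 ChIP-seq peaks that lay just downstream of the transcription start site (TSS) of a protein-coding gene. A summit is the base at which a peak is highest. From the reproducibility-thresholded peak list (the IDR list, for irreproducible discovery rate), summits 0 to 500 bp downstream of the nearest coding TSS of any annotated transcript were kept, counted along the strand of the gene. Summits between diverging TSSs of different genes at most 1000 bp apart were left out, which removed 33. The class held 406 of the 3396 IDR summits and belonged to 391 genes, of which 15 had more than 1 member. By the annotation of the gene, 321 members lay in the 5' UTR, 80 in the first intron and 5 elsewhere, 4 of these in coding sequence and 1 in a later intron. Position and annotation alone chose them within the list, and peak height entered only through the authors' threshold.

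The samples were whole embryos of mixed sex, aged 0 to 20 h, of a transgenic line of Drosophila melanogaster with stable expression of CG17568 tagged with GFP at its C-terminal end. There was 1 group with 2 biological replicates and no other genotype or treatment, and sonicated fragments of 200 to 800 bp were sequenced. The labels name the assay as transcription factor ChIP-seq, but their free text calls both samples input controls. They were read as ChIP here, and every value below holds only under that reading. Whole embryos mix many cell types and stages, so a peak cannot be assigned to a cell type. No read counts came with the peak lists, so depth is unknown, and no control track was analysed here.

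CG17568 is a predicted zinc finger protein, a family whose members often bind DNA in a sequence-dependent way. The region just downstream of a TSS holds the downstream part of the core promoter, the start of the 5' UTR and, where the first exon is short, the start of the first intron. In flies, paused RNA polymerase II and the first nucleosome are found there, and first introns often carry enhancers. Genes of cytosolic ribosomal proteins have short 5' UTRs and a distinctive initiator of pyrimidines, and they are transcribed at high rates in most cells.

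The sequences shown first are those of 5 of the 10 members that held the 8-mer with the strongest difference from weaker peaks, which is described further on. Each is 30 bases of the RefSeq Release 6 genome (dm6), written 5′ to 3′ on the strand of the gene, with the bases covered by this 8-mer and by 4 further 8-mers that overlap it in capitals. The summit of the peak lay 8 to 34 bp from the site in these 5 members.
RpL17 (chrX:6744184-6744213, minus strand): tttcgttccaCGTTTCCGGTGagtgcatgt
RpS10b (chrX:19598057-19598086, plus strand): tcgtcttcaCGTTTCCGGTGagtgcgtgtg
RpL9 (chr2L:11004117-11004146, minus strand): ttcttttcccCGTTTCCGGTGagtagtgtg
RpL8 (chr3L:2587464-2587493, plus strand): cttttcgcccCGTTTCCGGagtggtcgtat
RpL37A (chr2L:5071008-5071037, plus strand): tttcgatttTTCGTTTCCGGcgtgtaagtg
All 5 belong to genes of cytosolic ribosomal proteins, all 5 summits lay in the 5' UTR, and the sites were 22 to 40 bp downstream of the TSS. In RpL17, RpS10b and RpL9, the annotated end of the first exon fell inside the site or within 2 bases of it.

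The member of highest signal was at CG9147, a gene without an assigned name, on 2L from 6065949 to 6066258. The signal is a score that the authors' peak caller gave each peak, with no stated scale, and it is used here only to rank and describe peaks of 1 list. CG9147 had a signal of 1476 in the pooled list and rank 16 of all IDR peaks. Its summit lay 13 bp downstream of the TSS in the 5' UTR, and it ranked 15 in replicate 1 and 20 in replicate 2. The next 3 members lay deeper in their genes. Archease had its highest summit 293 bp downstream, in a later intron (3R, 21662407 to 21663080), at rank 21 in the pooled list, 25 in replicate 1 and 17 in replicate 2. Ada2b, an adaptor of histone acetyltransferase complexes, had a summit 247 bp downstream in its first intron (3R, 8239587 to 8240657), at ranks 35 and 28 in replicates 1 and 2. Cpsf6, a subunit of the machinery that cleaves and polyadenylates mRNA, had a first-intron summit at 457 bp (3L, 8314761 to 8315386), at ranks 41 and 36. These 4 sites stood within the 50 highest peaks of both replicates.

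Archease and Stat92E show how neighbouring summits of 1 gene can differ. Within the same peak interval, Archease had a further member 84 bp downstream in the 5' UTR with a signal of 620.74, which ranked 786 in replicate 1 and 156 in replicate 2. Stat92E encodes the transcription factor of the JAK/STAT pathway. Its 2 members, both in the 5' UTR, lay 366 and 160 bp downstream of the TSS, with signals of 606.34 and 169.65. The higher site ranked 180 and 196 in the replicates and the lower one 2355 and 2396, so the order of the sites was the same in both. In all, 4 members shared their interval with another member, and these are not separate peaks.

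Among the 20 members of highest signal, 14 lay in the 5' UTR, 5 in the first intron and 1 in a later intron. The 5' UTR sites included ph-p, a Polycomb repressive complex subunit (438 bp downstream, signal 1038), and CG5335 (2 bp, 1026.5). tank followed at 133 bp with a signal of 954.92, and TfIIS, an elongation factor of RNA polymerase II, at 83 bp with 717.78. Nacalpha, a subunit of the nascent polypeptide-associated complex that binds emerging chains at the ribosome, had its summit on the annotated start base itself, at 0 bp. jvl and Adk3, an adenylate kinase, lay at 116 and 63 bp. The first-intron sites after Ada2b and Cpsf6 were CG8320 (115 bp, signal 1042), CG9399 (71 bp, 580.32) and the scramblase gene scramb2 (376 bp, 549.12). wun, a lipid phosphatase that guides germ cells, rudhira and the receptor tyrosine phosphatase Ptp4E completed the 8 highest in first introns, at 407, 293 and 398 bp. Outside both classes, after Archease, were the 4 members in coding sequence, lawc, CG4074, CG44812 and CG3529, with signals of 137.42 to 173.64. Ribosomal protein genes supplied 4 of the 20, namely RpL24, RpS4, RpL17 and RpS10b, all at 2 to 6 bp.

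**Figure D1:**
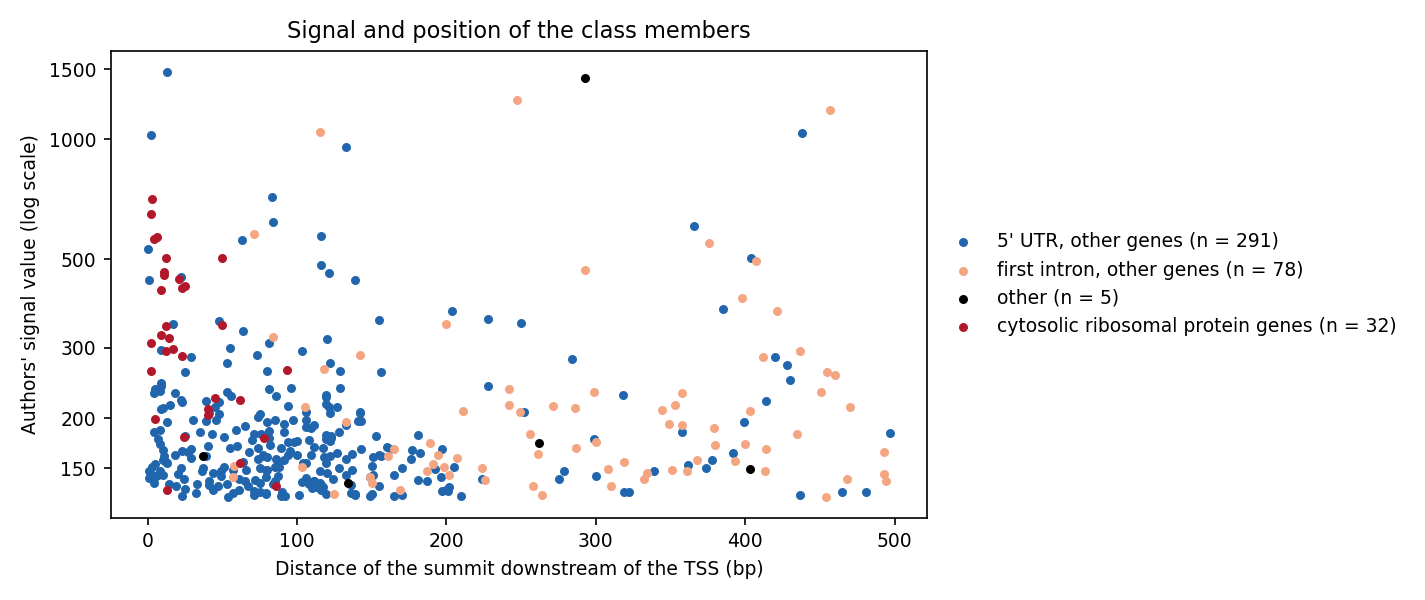
Each point is 1 of the 406 members, with its distance downstream of the TSS in bp and the authors' signal value on a log scale, coloured by annotation and by membership of the cytosolic ribosomal protein list. The 32 ribosomal protein members all lie within 93 bp of the TSS, while the members of highest signal are spread over the whole window.

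Over the class, the median signal was 169, with quartiles of 144.9 and 223.8 and a range of 127.2 to 1476. Members in the 5' UTR and in the first intron had medians of 168 and 174. IDR summits upstream of single coding promoters had a median of 215. The class thus sat low in the list, with 68 members (16.8%) among the 849 highest IDR ranks, against 35.3% of upstream summits and 46.0% of summits between diverging TSSs. These are descriptions of 1 list, with no test. At the 500 bp limit, the last members inside were fz, CG9449 and Mtp at 497, 494 and 493 bp, and the first IDR summits outside were at CG5854, dlg1 and CG31612 at 501, 502 and 503 bp, with signals of 611, 156 and 496. At the signal limit, the last members were CG13377, nrv2 and TP53INP with signals of 127.3, 127.2 and 127.2. The first class peaks below it were Rim2, whd and 14-3-3zeta with 126.9, 126.7 and 126.6. The signal scale has no gap at the threshold.

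Most members were found in both replicates. A replicate summit lay within 100 bp of 389 members in replicate 1 and of 390 in replicate 2, and 374 members (92.1%, Wilson 95% interval 89.1 to 94.4) had one in both. The share was 91.9% in the 5' UTR and 92.5% in the first intron (odds ratio 0.92, Fisher's exact test, two-sided, adjusted p = 1). It was 92.2% for upstream IDR summits (odds ratio 0.985, adjusted p = 1 in the same family of 2 exact tests). The median offset of the matched summit was 13 bp in replicate 1 and 7 bp in replicate 2. When only the 3396 highest peaks of each replicate were allowed, 57.1% of members and 69.4% of upstream summits had a match in both (odds ratio 0.589, exact adjusted p = 1.2e-04). Members ranked lower in the pooled list to begin with (median rank 2054, against 1343 for upstream summits). A cut on rank was therefore stricter for them, and this test cannot tell replicate support from signal. All IDR peaks were chosen from both replicates pooled, so these shares follow in part from that choice. Peaks were the units counted and are not replicates. The p-values and intervals therefore reflect counting error alone.

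**Figure D2:**
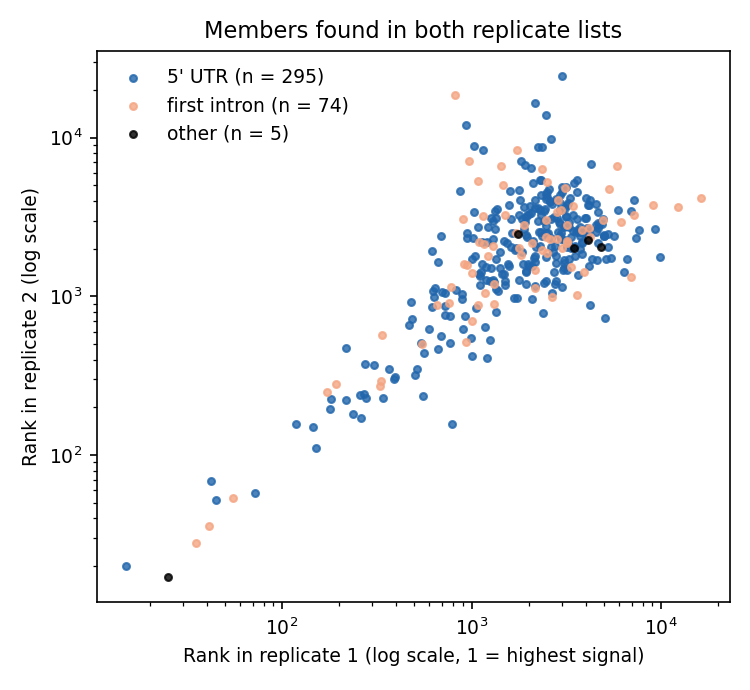
Rank of each member in replicate 1 and in replicate 2, both on log axes with rank 1 as the highest signal, for the 374 members with a summit within 100 bp in both lists. The highest members, such as CG9147 and Archease, rank close together in both replicates, and the spread widens beyond about rank 1000.

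Several members had a match within 100 bp in only 1 replicate. RpL30 and RpL3, proteins of the large ribosomal subunit, ranked 320 and 368 in the pooled list and 213 and 330 in replicate 2. No summit of replicate 1 lay within 1000 bp of either. Dp, the partner of E2F in cell cycle control, ranked 756 in replicate 2, with no replicate 1 summit within 1000 bp. The initiation factor gene eIF3h ranked 691 in replicate 2, and its nearest replicate 1 summit was 110 bp away. Diap1, an inhibitor of apoptosis, ranked 1157 in replicate 1, with the nearest replicate 2 summit at 124 bp. Of the members without a match, 5 of 17 in replicate 1 and 11 of 16 in replicate 2 had a summit at 101 to 200 bp, just past the limit used. Only pst lacked a match within 100 bp in both, with summits 107 and 152 bp away.

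The weaker peaks used for comparison were the pooled relaxed peaks of the same class with no IDR summit within 500 bp. Of 2292 pooled relaxed peaks in the class, 406 (17.7%) were IDR peaks, against 11.3% of all 30000 pooled relaxed peaks. Another 122 lay near an IDR summit and entered neither set, which left 1764. Every IDR peak outranked every weaker one in pooled signal, so the comparison is of strong with weak peaks of 1 experiment. The class held 11.96% of IDR summits (Wilson 95% interval 10.9 to 13.1) and 6.82% of all weaker peaks (odds ratio 1.85, Fisher's exact test, two-sided, p = 1.0e-23). This difference was not seen near the threshold. Among the 3221 weaker peaks within as many pooled ranks below the threshold as the IDR list holds, 416 (12.9%) were in the class, and the odds ratio turned to 0.916 (exact p = 0.248). The upstream class rose more, from 8.12% of weaker peaks to 20.1% of IDR summits. Among summits of both single-promoter classes, the downstream side therefore held 37.3% of IDR summits and 45.7% of weaker peaks (odds ratio 0.709, exact p = 8.9e-07).

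Within the class, IDR summits lay nearer to the TSS. The median distance was 106 bp for members and 158 bp for weaker peaks. The first 99 bp held 191 members (47.0%) and 34.6% of weaker peaks (odds ratio 1.68, exact test with Benjamini-Hochberg adjustment over 5 bins, adjusted p = 1.8e-05). From 100 to 199 bp the shares were 28.8% and 24.9%, with an adjusted exact p of 0.115. Each of the next 3 bins held a smaller share of members than of weaker peaks. The shares were 8.87% and 14.1% from 200 to 299 bp (adjusted exact p = 0.00533), 7.88% and 14.0% from 300 to 399 bp (0.00177), and 7.39% and 12.4% from 400 to 500 bp (0.00533). With the 1698 highest IDR peaks alone these 3 bins lost their call (exact adjusted p = 0.362, 0.0521 and 0.449), and without replicate 1 the bin from 200 to 299 bp did (0.0588). Against the weaker peaks just below the threshold, which had 42.8% of their summits in the first bin, no bin passed, and the first bin had an odds ratio of 1.19 (exact adjusted p = 0.63).

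**Figure D3:**
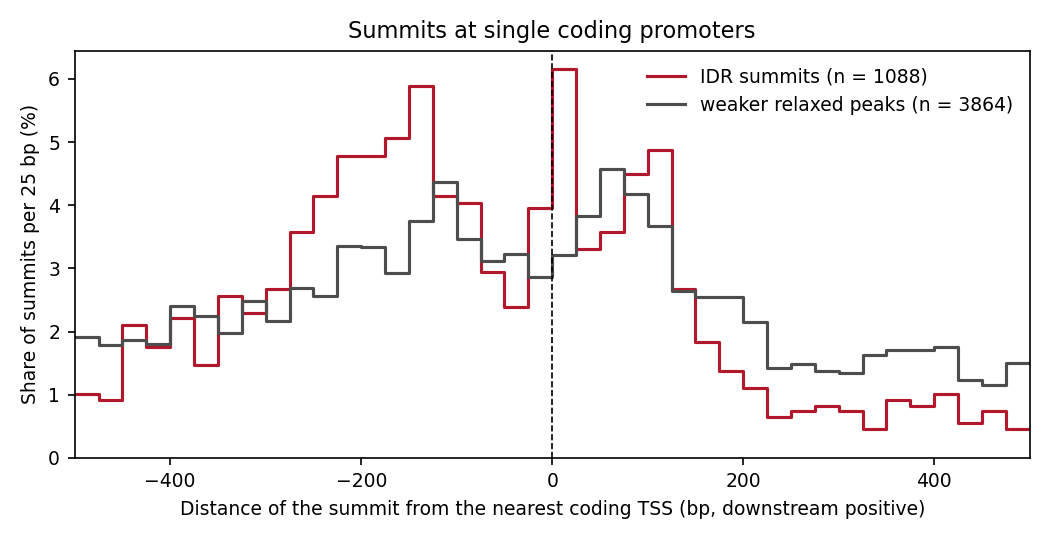
Share of summits per 25 bp against distance from the nearest coding TSS in bp, downstream positive, for IDR summits and weaker relaxed peaks at single coding promoters. The bin from 0 to 24 bp holds 6.16% of the IDR summits and 3.21% of the weaker peaks, and past 200 bp the IDR line runs below the weaker one.

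The finer distribution was not smooth. On the downstream side the IDR summits had a first maximum in the bin that starts at the TSS, with 67 summits, and a second at 100 to 124 bp, with 53. Only 36 lay from 25 to 49 bp. The weaker peaks had no such excess at the TSS, with 124 of 3864 from 0 to 24 bp and 148 from 25 to 49 bp. Within 20 bp of the TSS were 56 members, all in the 5' UTR, and 17 of these 56 were at ribosomal protein genes. Without that gene list, the first 99 bp still held a larger share of members than of weaker peaks (odds ratio 1.4, exact adjusted p = 0.00991), an alternative chosen after seeing the data.

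The 5' UTR held more of the members than of the weaker peaks, and 4 members lay in coding sequence. The 5' UTR share was 79.1% of members (Wilson 95% interval 74.8 to 82.7) and 64.7% of weaker peaks (odds ratio 2.06, Fisher's exact test adjusted over 3 annotations, adjusted p = 1.6e-08). The first intron held 19.7% and 25.9% (odds ratio 0.702, exact adjusted p = 0.00889). Without replicate 2 the first-intron call was lost (odds ratio 0.81, exact adjusted p = 0.13). All other positions held 1.23% and 9.41% (odds ratio 0.12, exact adjusted p = 4.7e-10). Coding sequence made up most of this last group, with 135 weaker peaks (7.65%). Against the weaker peaks just below the threshold, the odds ratios were 1.41 for the 5' UTR (exact adjusted p = 0.0621), 0.829 for the first intron (0.307) and 0.276 for other positions (0.0291).

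Annotation and distance are tied, since a summit close to the TSS is nearly always in the first exon. Within the first 99 bp, 96.3% of members and 90.8% of weaker peaks were in the 5' UTR, and from 100 to 199 bp 84.6% and 72.5%. The Wilson intervals of members and weaker peaks were apart for the 5' UTR from 100 to 199 bp (77.0 to 90.0% and 68.1 to 76.5%). In every other bin they overlapped, and for the first intron they overlapped in all bins. With the first 99 bp taken alone, the 5' UTR odds ratio was 2.66 (exact adjusted p = 0.0196), and from 100 to 500 bp it was 1.7 (exact adjusted p = 9.0e-04). The first-intron difference did not pass in either range, with odds ratios of 0.65 (exact adjusted p = 0.421) and 0.89 (0.488). Both ranges were chosen after seeing the data. The range from 100 to 500 bp still mixes distances, so its odds ratio does not hold distance fixed. From 200 to 299 bp the 5' UTR held 41.7% of members and 46.8% of weaker peaks. The shares were 40.6% and 39.7% from 300 to 399 bp, and 33.3% and 24.7% from 400 to 500 bp.

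**Figure D4:**
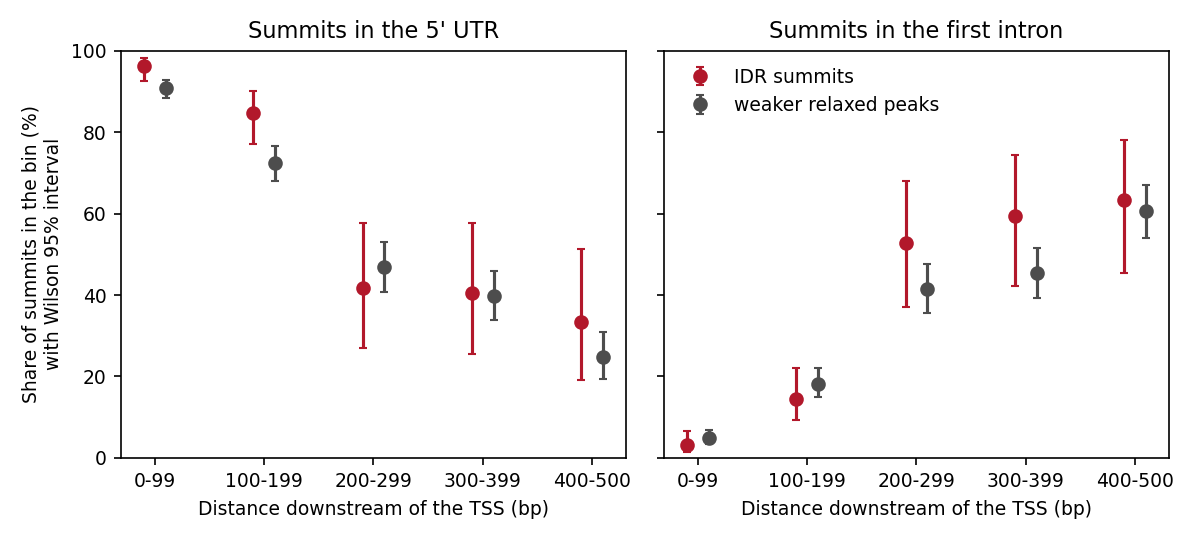
Share of summits in the 5' UTR (left) and in the first intron (right) for each 100 bp of distance from the TSS, with Wilson 95% intervals, for IDR summits and weaker relaxed peaks of the class. The 5' UTR share of the members falls from 96.3% in the first bin to 33.3% in the last. The intervals of both sets are apart only for the 5' UTR from 100 to 199 bp.

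First-intron members differed from 5' UTR members in position and in base composition. Their summits lay a median of 290 bp downstream, against 84 bp in the 5' UTR. The median GC content within 50 bp of the summit was 34.7% in introns and 40.6% in 5' UTRs, and 32.7% at upstream IDR summits. Weaker peaks of the class had 35.6% in introns and 40.6% in 5' UTRs. The nearest TSS was the one of the canonical transcript for 70.1% of the 5' UTR members and 43.8% of the intron members. Genes with more than 1 TSS made up 60.4% and 75%. Of all members, 45 (11.1%) had another TSS of the same gene within 500 bp downstream of the summit, so for these the summit was also upstream of a start site. An IDR summit upstream of the same TSS, within 500 bp of it, accompanied 19 members (4.68%). The share of no chromosome arm, of 6, passed an exact test between members and weaker peaks. The lowest adjusted p was 0.367 for chromosome 4, with 1.72% of members and 3.57% of weaker peaks, and 0 arms had an unadjusted p under 0.05.

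Genes of cytosolic ribosomal proteins gave the most members of the 14 gene lists. Of 88 such genes, 32 (36.4%) had a member, against 2.80% of all 13945 protein-coding genes. A relaxed peak of the class was present at 34 of the 88, so 94.1% of those with any such peak had an IDR summit, against 21.9% of the 1789 genes of all kinds. The other ribosomal protein genes had an IDR summit only upstream or between diverging TSSs (19 genes) or none in these promoter classes (37 genes). The large subunit gave 18 of 50 genes and the small subunit 14 of 38. The list was known from earlier results of these data to hold many peaks, so these counts are a description.

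The choice of sites kept positions within the window and, through the authors' threshold, signals above a limit. Within these limits, the ribosomal protein members had a shorter median distance and a higher median signal than members at other genes. The median distance of the ribosomal protein members was 15.5 bp and their range 2 to 93 bp, against a median of 116 bp for the members at other genes. The summits of replicates 1 and 2 lay a median of 13 and 3 bp from the pooled one, against 13 and 7 bp for all members. Their median signal was 313, against 166 at other genes, and 20 of the 32 stood among the 849 highest IDR ranks. In the 5' UTR were 30 of them, and 2 in a first intron. The 5' UTRs themselves were short, with a median of 112 bp against 406 bp at other genes for the longest one of the nearest TSS. RpL24, with a signal of 709.25, ranked 152 in replicate 1 and 111 in replicate 2. RpS4 (650.09) ranked 146 and 150, RpL17 (570.12) 236 and 182, and RpS10b (563.63) 217 and 221. RpS3A on chromosome 4 ranked 516 and 351. The lowest of the group, RpS14b, had a signal of 132.2.

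The lists of other genes for translation and proteolysis had shares at or below the 2.80% of all genes, and with lists of this size that is not a result about them. None of the 76 mitochondrial ribosomal protein genes had one, although 3 had a relaxed peak of the class. Proteasome, nuclear pore and aminoacyl-tRNA synthetase genes (48, 27 and 32) had no relaxed peak there. Among 44 translation initiation factor genes, eIF3h (2.27%) had a first-intron member at 242 bp.

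Of 40 genes of the Notch, Egfr, Dpp and Wnt pathways, 9 (22.5%) had a member, against 2.80% of all genes. Of the 21 with a relaxed class peak this was 42.9%, against 21.9% of all genes with one. That share was 40% in the segmentation and cell cycle lists and 37.5% in the Polycomb and Trithorax list. It was 0% in the Hox and ZAD lists, and all these lists had few genes with such a peak. The signalling list was thus not particular in this share. Its highest members were arr, a Wnt co-receptor (84 bp, first intron, ranks 657 and 877 in replicates 1 and 2), and Dad, an inhibitor of Dpp signalling (41 bp, 5' UTR, ranks 945 and 2347). The receptor gene Egfr followed at 74 bp (1950 and 1453) and the Wnt receptor gene fz at 497 bp (2174 and 1798). Of the 31 Polycomb and Trithorax genes, ph-p, ph-d and jing had one (9.68%), and of 24 segmentation genes the pair-rule gene hry (76 bp) and the gap gene hb (300 bp, first intron). Cell cycle genes gave 4 of 30 (13.3%). These were Dp (412 bp), the CDK inhibitor dap (81 bp), the cyclin CycA (176 bp) and fzr, an activator of the anaphase-promoting complex (65 bp). The splicing regulator B52 (73 bp) was the only one of 28 splicing factors (3.57%, near the share of all genes), and Trl, which encodes GAGA factor, of 19 architectural proteins (117 bp, rank 3067). None of 8 Hox genes and none of 15 zinc finger genes with a ZAD domain had a member. With lists of this size and 2.80% of all genes holding a member, that is not a result about them.

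The 14 known motifs comprised core promoter elements, sites of DNA-binding factors and simple repeats. None of them, sought on both strands within 50 bp of the summit, passed the exact test between members and weaker peaks after adjustment. Before it, 3 were under 0.05. Motif 1 (GGTCACACT) was at 6 members (1.48%) and 0.283% of weaker peaks (odds ratio 5.28, exact adjusted p = 0.072). It was held by 1.89% of all windows from a coding TSS to 100 bp downstream. The E-box CAGCTG was at 6.40% and 3.40% (odds ratio 1.94, exact adjusted p = 0.072), and the run AAAAAAAA at 8.37% and 12.3% (0.652, 0.118). In all windows from a coding TSS to 100 bp downstream, CAGCTG was at 5.85% and the run at 5.9%. The initiator core TCAGT and the pyrimidine-rich letters CTCTTT, related to the initiator of ribosomal protein genes, had shares of 17.7% and 8.87% among members, with adjusted exact p-values of 1. The CTCF core AGGTGGCG was at 0 of 406 members, with an upper Wilson limit of 0.937%.

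Compared with IDR summits upstream of single promoters, 3 of the 14 motifs passed (21.4%), 2 of them less frequent at members. TATAAA was within 50 bp of 14.8% of members and 25.8% of upstream summits (odds ratio 0.499, exact adjusted p = 2.6e-04). GAGAG, bound by GAGA factor, was at 10.3% and 18.9% (odds ratio 0.495, exact adjusted p = 0.001). CACACACA was more frequent at members, with 4.68% and 1.76% (odds ratio 2.74, exact adjusted p = 0.035). Weaker peaks of the class held TATAAA at 15.2%, GAGAG at 11.7% and CACACACA at 3.2%. In all windows from a coding TSS to 100 bp downstream the shares were 10.5%, 11.6% and 2.03%. The lower TATAAA and GAGAG shares were thus not particular to the IDR summits of the class. The windows of members and of upstream summits differ in GC content by the medians given above. The part of base composition in these differences was not tested.

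The test of all 8-mers gave a small set that was led by 1 overlapping family. Of 1781 8-mers at 1% or more of either set, merged with their reverse complements and sought within 50 bp of the summit, 10 (0.561%) were higher at members, 0 were lower and 263 had an unadjusted p under 0.05. CCGGAAAC was at 10 members and 2 of 1764 weaker peaks (odds ratio 22.2, exact adjusted p = 0.00392), and CGGAAACG at 10 and 3 (14.8, 0.00708). CACCGGAA was at 7 and 1, ACCGGAAA at 11 and 7, and GAAACGAA at 14 and 14. The other called 8-mers were AGCAGTCG, CCGAAAGC and GAACCAGA, at 5 members and 0 weaker peaks each, CGCGCAAA at 6 and 1, and GCTGCCAC at 8 and 3. All 10 were at under 1% of the weaker peaks, so each passed the filter through the members alone and had to be high there, and the count of 10 supports nothing by itself. With a filter on both sets together, chosen after seeing the data, 14868 8-mers were tested and 1 of them, CCGGAAAC, was called (0.00673%, exact adjusted p = 0.0327).

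The call of the leading 8-mer rested on ribosomal protein genes. When that list was left out, 0 8-mers passed the exact test, an alternative also chosen after seeing the data. CCGGAAAC then fell below the 1% filter and was not tested, so the loss of its call was fixed by the filter. Against the weaker peaks just below the threshold, 0 passed as well, and CCGGAAAC had an odds ratio of 10.5 (exact adjusted p = 0.506). With the highest peaks of replicate 2 alone 0 passed, and with those of replicate 1 alone 3 did. The windows around the members were also set against windows of the same width centred 300 bp to either side. There, 3 of 1758 8-mers (0.171%) were higher at the summits by the exact test, ACCGGAAA (11 members, 0 of 812 flanks), AAACACAC (18 and 5) and CGGAAACG (10 and 0). These also passed that filter through the members alone. With the filter on both sets together, chosen after seeing the data, the same 3 of 7641 8-mers (0.0393%) passed, with exact adjusted p-values of 0.0394, 0.04 and 0.04. The 10 8-mers with the highest odds ratio at IDR summits outside the class, mostly rich in A and T, were then tested in the class. None of the 10 passed after adjustment, with 1 under 0.05 before it (TAGGTAAA, 4 members and 4 weaker peaks, exact adjusted p = 0.449).

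The family of CCGGAAAC and the 4 8-mers that overlap it, CGGAAACG, CACCGGAA, ACCGGAAA and GAAACGAA, was then followed as 1 element. It was chosen on the members, so its shares are descriptions. It was found at 28 members (6.90%, Wilson 95% interval 4.81 to 9.79), all in the 5' UTR, and at none of the 80 in a first intron, where the upper limit was 4.58%. It was at 1.47% of weaker peaks, 2.05% of upstream IDR summits, 3.40% of summits between diverging TSSs and 2.13% of all windows from a coding TSS to 100 bp downstream. Among the members at ribosomal protein genes 13 of 32 (40.6%) held it, and among the others 15 of 374 (4.01%). Most sites at the other genes were GAAACGAA alone, the 8-mer with the lowest odds ratio of the family (4.46). At ribosomal protein genes only the RpL24 site was GAAACGAA alone. The shares at both groups of genes thus largely count different sequences.

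All 13 ribosomal sites read, on the strand of the gene, as the reverse complement of the 8-mers as written, as in the 5 sequences printed above, and they lay 9 to 40 bp downstream of the TSS with a median of 22 bp. At the other 15 genes, 8 sites had one orientation and 7 the other, and they lay from 30 bp upstream to 436 bp downstream. Most of these 15 sites were GAAACGAA alone, so the sites of both groups also differ in sequence. Sites were sought only within 50 bp of a summit, so these ranges follow in part from the summit distances, which reached 93 bp at ribosomal protein genes and 497 bp at others, and the difference was not tested. The end of the first exon fell within 2 bases of the site in 4 of the 13 ribosomal sites and in 1 of the other 15. The summit was within 25 bp of the site in 18 of the 28 members. Among ribosomal protein genes without a member, 14 of 56 (25%, Wilson 95% interval 15.5 to 37.7) held the element from the TSS to 100 bp downstream, against 13 of 32 (40.6%, 25.5 to 57.7) with a member. Among other genes the shares were 2.55% without and 7.80% with a member. Of the 37 ribosomal protein genes with no IDR summit in any of the 3 promoter classes, 9 (24.3%) held it. The intervals with and without a member overlap for ribosomal protein genes. For other genes they were apart, with an upper limit of 2.83% without a member and a lower limit of 5.45% with one. The element was chosen on the members, so this is a description.

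**Figure D5:**
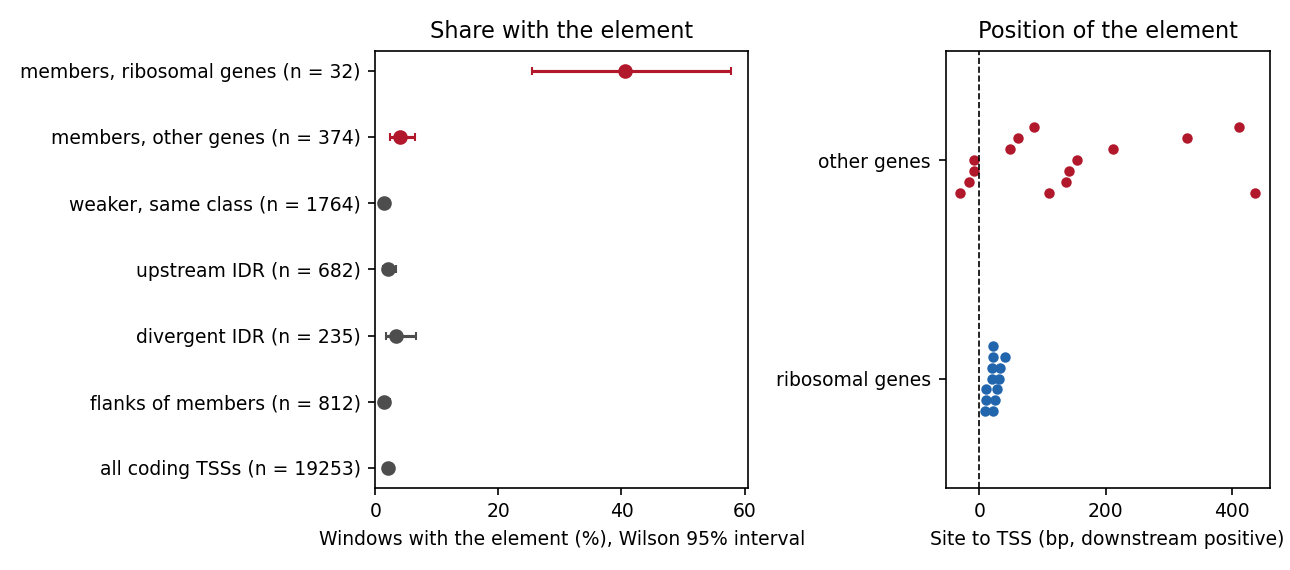
Left, share of windows with the element in members at ribosomal protein and other genes, in weaker peaks, upstream and divergent IDR summits, flanks of members and all coding TSSs, with Wilson 95% intervals. Right, distance of each of the 28 sites from the TSS in bp, where the 13 ribosomal sites lie between 9 and 40 bp and the other 15 between -30 and 436 bp.

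Motif 1 is known from fly promoters that lack a TATA box. The sites of 3 of its 6 members are shown because 3 of the 6 were at ribosomal protein genes, 30 bases each on the strand of the gene with the motif in capitals.
RpL37A (chr2L:5070980-5071009, plus strand): atcgagcggcGGTCACACTtttcgctcttt
RpLP1 (chr2L:419924-419953, plus strand): tcatcggcgcGGTCACACTgcatatcaact
Hrb98DE (chr3R:28600395-28600424, plus strand): ttgtagaaacGGTCACACTgtattcagttt
The motif lay on the gene strand in all 6. It was 14 bp upstream of the TSS in RpLP1, 6 bp upstream in RpL37A and 2 bp downstream in Hrb98DE. RpL37A and RpLP1 held both Motif 1 and the element described above, with the element 22 and 9 bp downstream of the TSS.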

How the data were processed

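The authors deposited 4 dm6 peak lists in narrowPeak format, per the text deposited with them. They are a relaxed list for each replicate and for both pooled (30000 peaks each) and an IDR-thresholded list of 3396 peaks, identical to the highest 3396 of the pooled list. The lists hold the authors' signal value and the deposited −log10 q-value of each peak. The unadjusted p column is unused. The sources used here give neither the peak caller, the aligner and their versions nor the IDR cut-off, nor the role of a further input file of each list. Depth is unknown, since no read counts were given. The control experiment was not analysed here.

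Each summit (start plus offset) was placed relative to TSSs of Ensembl release 115 protein-coding transcripts (BDGP6.54, 6 arms, 19253 distinct TSSs) with Python 3.11.15. A summit counted as 5' UTR before first intron. Where a TSS was shared by several genes (10 members), 1 gene was named. Sequences came from the RefSeq Release 6 genome. Differences between shares were tested with the two-sided exact test of Fisher (SciPy 1.17.1), adjusted by the Benjamini-Hochberg method within each family and called at an adjusted p under 0.05. Shares have Wilson 95% intervals. The 8-mer test was checked on simulated windows of independent bases, with the same composition in both sets. All 20 planted 8-mers were recovered, at a larger simulated share than that of CCGGAAAC among members. In 5 simulations without a difference, the filter on either set made 0 to 4 calls and the filter on both sets together made 0. Real members and weaker peaks also differ in distance and annotation, which was not simulated. The check therefore cannot vouch for a call in the real windows. Alternatives covered the threshold, each replicate alone, annotation, window and matching distance.

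The named sites were, by rule, the 20 of highest signal, the 8 highest in 5' UTRs and in first introns and the 5 elsewhere, 3 on either side of 500 bp, up to 4 of each gene list and the 10 leading 8-mers. RpL30, RpL3, RpS3A, Diap1, pst, RpS14b and the second Stat92E site were named after their values were seen. Members, gene lists and motifs were chosen with earlier results of these data known, and the ribosomal protein list was widened to hyphenated symbols after the files were opened. Some sites and sequences are not reported here.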

Additional observations from a re-analysis of the deposited data

How the results depend on the processing

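No paired analysis was possible because the design has 1 group. Against weaker peaks just below the threshold, the class share no longer differed (odds ratio 0.916, exact p = 0.248). The differences also shrank in the first 99 bp (1.19), the 5' UTR (1.41) and the first intron (0.829), with 0 8-mers called. The cause was not tested. The first intron no longer passed with the 1698 highest IDR peaks (0.837), at 0 to 99 bp only (0.65) at 100 to 500 bp only (0.89) and without replicate 2 (0.81, exact adjusted p = 0.13). With each replicate left out in turn, the odds ratios ranged from 1.69 to 1.81 for the class share, 1.68 to 1.87 for the first 99 bp, 1.79 to 1.94 for the 5' UTR and 0.768 to 0.81 for the first intron. Called 8-mers ranged from 0 to 3 and called arms from 0 to 1. The count of 8-mers, 10, fell to 5 with 25 bp either side, 0 with 100 bp, 0 within first introns, 0 without ribosomal protein genes and 1 with the filter on both sets together. With 100 bp either side, 1 known motif passed, the E-box CAGCTG (odds ratio 1.78, exact adjusted p = 0.0251). Replicate support, class against upstream, passed only with the highest peaks of each replicate (0.589), a cut that was stricter for the class because of its lower signal. Of 129 alternative values, 97 stayed on their side of the threshold or, for counts, near the main count. Without read counts, the limits set by depth could not be assessed.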
